A study of Mus musculus with 15 samples.

Results

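The genes described here are 10 mouse genes of bile acid synthesis, bile acid conjugation and the feedback that restrains synthesis, out of 18820 genes measured on the same arrays. They were taken by name: Cyp7a1, Cyp8b1, Cyp27a1, Cyp7b1, Cyp39a1, Slc27a5, Baat, Nr0b2, Fgfr4 and Klb. Each of the 10 had 1 probe set annotated to its symbol alone, and that probe set was used. Levels are log2 intensities as the authors deposited them, so a difference of 1 is a 2-fold change.

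The cells were primary hepatocytes of male C57BL/6J mice, isolated from liver and cultured on collagen. They were transduced with an adenovirus for human FXRα1, FXRα2, FXRα3 or FXRα4, each of which also expressed GFP, or with an adenovirus for GFP alone. RNA was taken 36 h after transduction, and each of the 5 groups had 3 arrays. All groups therefore carried adenovirus, GFP and the mouse's own FXR (Nr1h4), all spent the last day in medium without dexamethasone and insulin, and the labels name no added FXR ligand. The isoforms differ by a short insert beside the DNA-binding domain, present in FXRα1 and FXRα3 and absent from FXRα2 and FXRα4, and by the N-terminus, which is longer in FXRα3 and FXRα4. Whether the 3 arrays of a group stand for different mice, cultures or wells is not in the labels. The p-values below therefore rest on a spread that may be technical.

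As background, hepatocytes turn cholesterol into bile acids by a classical pathway that begins at Cyp7a1 and by alternative pathways that begin with side-chain hydroxylation. Bile acids activate FXR, and FXR induces the small heterodimer partner SHP (Nr0b2), a nuclear receptor without a DNA-binding domain that represses Cyp7a1 and Cyp8b1. In the intestine FXR induces the hormone FGF15, which reaches the liver and restrains synthesis through the receptor FGFR4 and its coreceptor β-Klotho (Klb).

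All 10 measured hepatocyte markers were bright, with means over the arrays from 9.88 to 13.1, and none was dim. A gene is called dim where every group mean was under 3.96, the 95th percentile of 1170 odorant and pheromone receptor genes. Of the markers of other cells, 4 of 8 for Kupffer cells were dim, 1 of 7 for sinusoidal endothelium, 3 of 7 for stellate cells, 1 of 5 for cholangiocytes and 2 of 5 for leukocytes. The summed linear intensity of the cholangiocyte markers was 1954 to 2057 with FXRα1, 1465 to 1817 with FXRα2, 2510 to 2791 with FXRα3 and 1547 to 1748 with FXRα4, against 868 to 963 with GFP. Its 5 measured genes did not move together: Epcam and Sox9 rose with every isoform, Krt19 rose with FXRα1 (1.32) and FXRα3 (1.76) and fell with FXRα2 (−1.82) and FXRα4 (−0.93), and Krt7 and Cftr passed in no comparison against GFP. The part of these genes in the results was not tested. For hepatocyte markers the sum was 35736 to 39419 with FXRα1 and 39858 to 42991 with FXRα2. It was 39080 to 41863 with FXRα3, 39808 to 42276 with FXRα4 and 37169 to 39616 with GFP. All FXRα2 and FXRα4 sums lay above all GFP sums, and those of FXRα1 and FXRα3 overlapped GFP. Of these 10 markers, 1 rose and 1 fell with FXRα1 (12.4% of all genes passed). With FXRα2, 6 rose and 0 fell (34.3%), with FXRα3, 4 rose and 1 fell (14.1%), and with FXRα4, 6 rose and 0 fell (33.8%). The part of these changes in the results was not tested. Fewer cells of a type and less RNA per cell cannot be told apart in such samples. The probe set for Nr1h4 was designed for the mouse transcript, so it does not check the human transgenes. It rose with FXRα4 (0.41 ± 0.07, limma adjusted p = 0.000117) and passed with no other isoform. Abcb11, the bile salt export pump gene and a direct FXR target, rose with every isoform, by a log2 of 3.01 for FXRα1, 3.36 for FXRα2, 0.49 for FXRα3 and 1.87 for FXRα4.

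Among the 10 genes, Cyp8b1 had the widest range of group means, 1.65 log2, and Klb, Nr0b2, Cyp39a1 and Fgfr4 followed with 0.89, 0.86, 0.75 and 0.64. Cyp7a1 spanned 0.0926, but its probe set was dim in every group, where little range can be seen. In tests of each isoform against GFP at an adjusted p under 0.05, 9 of the 10 genes changed with at least 1 isoform, where 47.8% of all genes did, and Cyp7a1 with none. FXRα1 changed 1 of the 10, where 12.4% of all genes passed; that gene rose, where 8.42% of all genes did. FXRα2 changed 5, where 34.3% of all genes passed; 4 rose and 1 fell, where 17.5% and 16.7% did. FXRα3 changed 4, where 14.1% of all genes passed; 2 rose and 2 fell, where 7.45% and 6.62% did. FXRα4 changed 7, where 33.8% of all genes passed; 2 rose and 5 fell, where 18.0% and 15.7% did. The isoform's arrays did not overlap the GFP arrays for 2 of the 10 genes with FXRα1, against 24.3% of all genes, for 5 with FXRα2, against 46.0%, for 5 with FXRα3, against 31.2%, and for 7 with FXRα4, against 44.4%. The median log2 change of the 10 genes was 0.083 for FXRα1, 0.13 for FXRα2, −0.0574 for FXRα3 and −0.23 for FXRα4, against medians of all genes between −0.0478 and 0.0035. The 4 comparisons share the GFP arrays and are not independent of each other.

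**Figure D1:**
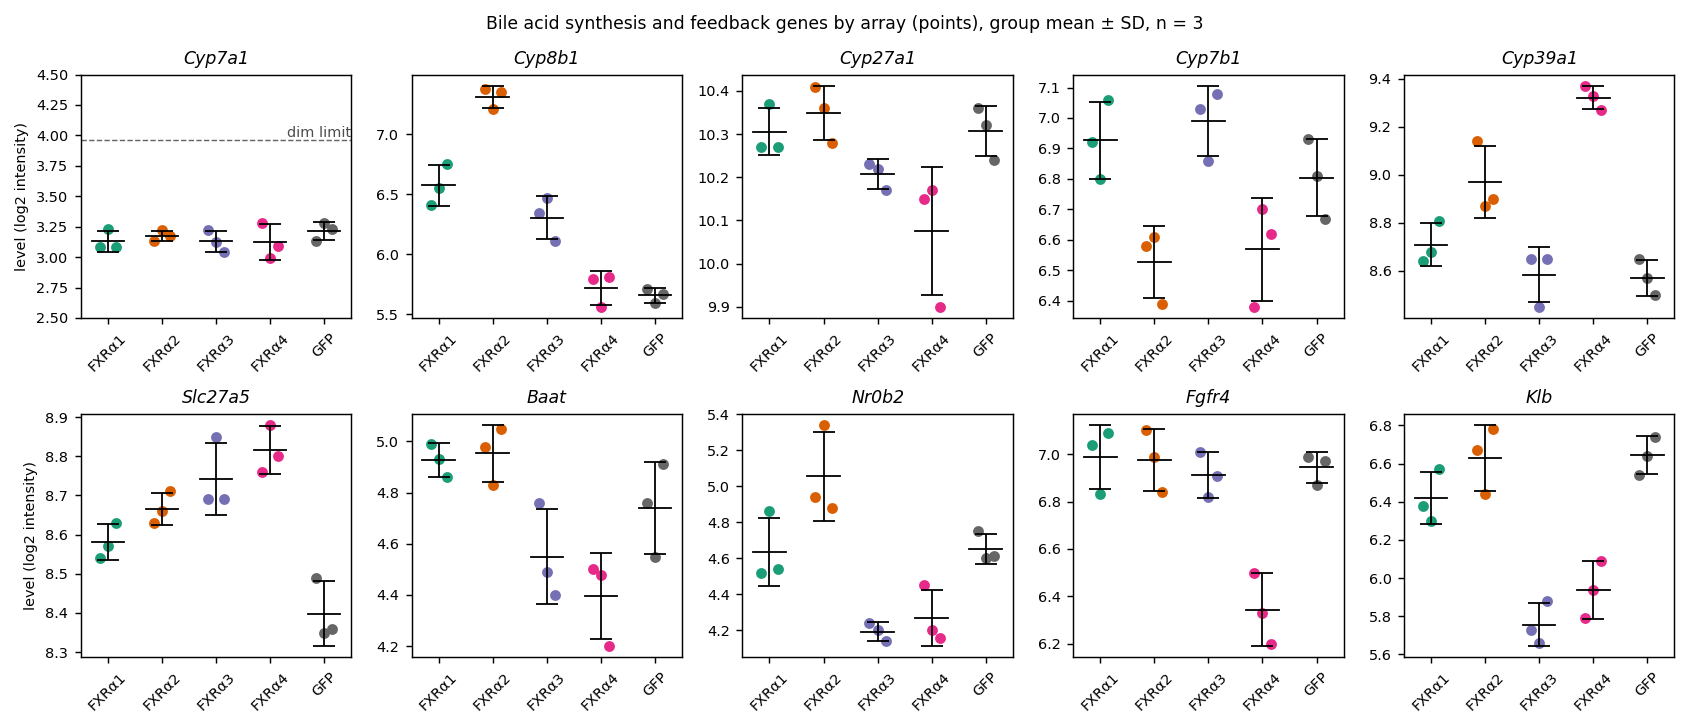
Level (log2 intensity) of each of the 10 genes on every array, by group, with the group mean and SD (n = 3) as bars. The vertical scale differs between panels. Cyp8b1 stands highest with FXRα2 (7.21 to 7.38), Fgfr4 lowest with FXRα4 (6.20 to 6.50), and Cyp7a1 lies under the dim limit of 3.96 in every group.

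**Figure D2:**
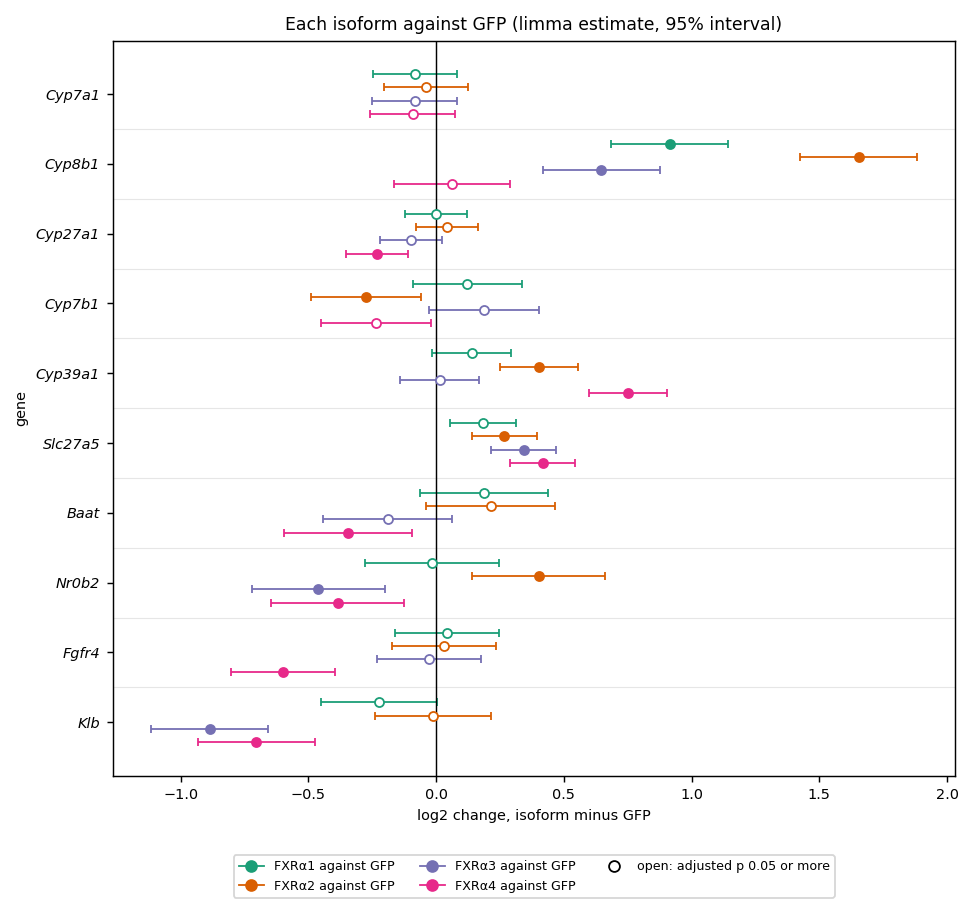
Log2 change of each gene, isoform minus GFP, with its 95% interval from limma over 3 arrays a group. Filled points passed at an adjusted p under 0.05. Cyp8b1 moves furthest upwards (1.65 with FXRα2) and Klb furthest downwards (−0.89 with FXRα3).

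Cyp7a1 encodes cholesterol 7α-hydroxylase, the rate-limiting enzyme of the classical pathway. Its level was 3.08, 3.23 and 3.08 with FXRα1, 3.13, 3.22 and 3.17 with FXRα2, 3.22, 3.12 and 3.04 with FXRα3 and 3.28, 2.99 and 3.09 with FXRα4, against 3.13, 3.28 and 3.23 with GFP. The 5 groups overlapped, and every array lay in the range where odorant receptor genes lie, at the 7.38th percentile of all genes. No comparison against GFP passed, with log2 changes from −0.0926 to −0.0395 and limma adjusted p from 0.432 to 0.751. With FXRα4 the 95% interval ran from −0.26 to 0.0725, but for a dim probe set such an interval bounds the signal and not the transcript. With each array centred on its median the change with FXRα4 was −0.28 (limma adjusted p = 0.0244). That centring moved every gene's change in this comparison by −0.19, and 10738 of 18820 genes then passed, 8672 of them falling.

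Cyp8b1 encodes sterol 12α-hydroxylase, which directs synthesis towards cholic acid. Its level was 6.41, 6.55 and 6.75 with FXRα1, 7.38, 7.21 and 7.35 with FXRα2, 6.34, 6.47 and 6.11 with FXRα3 and 5.79, 5.56 and 5.81 with FXRα4, against 5.71, 5.59 and 5.67 with GFP. All arrays of FXRα1, FXRα2 and FXRα3 lay above all GFP arrays, and those of FXRα4 overlapped GFP. Cyp8b1 rose 1.88-fold with FXRα1 (log2 0.91 ± 0.11 SE, limma adjusted p = 2.76e-06), 3.15-fold with FXRα2 (1.65 ± 0.11, limma adjusted p = 5.25e-11) and 1.56-fold with FXRα3 (0.65 ± 0.11, limma adjusted p = 0.000199). With FXRα4 it did not pass (0.0622 ± 0.11, 95% interval −0.17 to 0.29, limma adjusted p = 0.73). In the order of levels, FXRα2 stood above FXRα1 and FXRα3 above FXRα4 without overlap, while FXRα1 overlapped FXRα3 and FXRα4 overlapped GFP.

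The enzymes of the alternative pathways had narrower ranges of group means than Cyp8b1 and changed in differing directions. Cyp27a1, the mitochondrial sterol side-chain hydroxylase that serves both pathways, stood at 10.27, 10.37 and 10.27 with FXRα1, 10.41, 10.36 and 10.28 with FXRα2, 10.23, 10.22 and 10.17 with FXRα3 and 10.15, 10.17 and 9.90 with FXRα4, against 10.36, 10.32 and 10.24 with GFP. The FXRα3 and FXRα4 arrays lay below every GFP array, FXRα3 by a narrow gap, and the others overlapped GFP. Cyp27a1 fell with FXRα4 by 0.23 ± 0.06 on the log2 scale (limma adjusted p = 0.00323), and did not pass with FXRα1, FXRα2 or FXRα3 (−0.0983 to 0.043). Without FXRα4 replicate 3, the lowest array, the change with FXRα4 was −0.15 (limma adjusted p = 0.0396), and with median centring it was −0.42.

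Cyp7b1, the oxysterol 7α-hydroxylase, had levels of 6.92, 6.80 and 7.06 with FXRα1, 6.58, 6.61 and 6.39 with FXRα2, 7.03, 6.86 and 7.08 with FXRα3 and 6.38, 6.70 and 6.62 with FXRα4, against 6.93, 6.81 and 6.67 with GFP. The FXRα2 arrays lay below every GFP array, and the other isoforms overlapped GFP. It fell with FXRα2 by 0.28 ± 0.10 on the log2 scale (limma adjusted p = 0.0426), or by 0.46 with median centring, while the change with FXRα4 was −0.24 ± 0.10 (limma adjusted p = 0.0884). The FXRα2 call was lost without FXRα1 replicate 1 or FXRα3 replicate 1 (−0.28 in both), FXRα2 replicate 1 (−0.31), FXRα2 replicate 3 (−0.21), GFP replicate 1 (−0.21) or GFP replicate 2 (−0.27), and with 16 added to the linear values (−0.24), at limma adjusted p from 0.0507 to 0.177. The FXRα4 change passed without FXRα4 replicate 2 (−0.30, limma adjusted p = 0.0481), with median centring (−0.42) and with quantile normalization (−0.36).

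Cyp39a1, a hydroxylase of side-chain oxysterols, was highest with the isoforms that lack the insert. Its level was 8.64, 8.68 and 8.81 with FXRα1, 9.14, 8.87 and 8.90 with FXRα2, 8.65, 8.45 and 8.65 with FXRα3 and 9.37, 9.33 and 9.27 with FXRα4, against 8.65, 8.57 and 8.50 with GFP. FXRα4 stood above FXRα2 and FXRα2 above FXRα1 without overlap, and FXRα1, FXRα3 and GFP overlapped in turn. Cyp39a1 rose 1.68-fold with FXRα4 (log2 0.75 ± 0.07, limma adjusted p = 2.97e-08) and 1.32-fold with FXRα2 (0.40 ± 0.07, limma adjusted p = 0.000141, and 0.22 with median centring). The changes with FXRα1 (0.14 ± 0.07, limma adjusted p = 0.287) and FXRα3 (0.0135 ± 0.07, limma adjusted p = 0.962) did not pass.

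Slc27a5 and Baat carry out the last steps, conjugation to taurine or glycine. Slc27a5 encodes the bile acyl-CoA synthetase and had levels of 8.54, 8.57 and 8.63 with FXRα1, 8.63, 8.66 and 8.71 with FXRα2, 8.69, 8.85 and 8.69 with FXRα3 and 8.76, 8.88 and 8.80 with FXRα4, against 8.49, 8.35 and 8.36 with GFP. All 12 isoform arrays lay above all 3 GFP arrays, although neighbouring isoforms overlapped. Slc27a5 rose with FXRα2 (0.27 ± 0.06, limma adjusted p = 0.00137), FXRα3 (0.34 ± 0.06, limma adjusted p = 0.000351) and FXRα4 (0.42 ± 0.06, limma adjusted p = 9.08e-06, or 0.23 with median centring), and not with FXRα1 (0.18 ± 0.06, limma adjusted p = 0.0551). The call with FXRα2 was lost with median centring (0.08, limma adjusted p = 0.243). The change with FXRα1 passed without GFP replicate 1 (0.23, limma adjusted p = 0.0282), and with the replicate number as a block (limma adjusted p = 0.0318).

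Baat encodes the amino acid N-acyltransferase that completes conjugation. Its level was 4.99, 4.93 and 4.86 with FXRα1, 4.98, 4.83 and 5.05 with FXRα2, 4.76, 4.49 and 4.40 with FXRα3 and 4.50, 4.48 and 4.20 with FXRα4, against 4.76, 4.55 and 4.91 with GFP. The FXRα4 arrays lay just below the lowest GFP array, and the other isoforms overlapped GFP. Like that of Nr0b2, the probe set was not dim but low, at the 41.6th percentile of all genes. Its mean with FXRα4 was 4.40, against the dim limit of 3.96. Baat fell with FXRα4 by 0.34 ± 0.12 on the log2 scale (limma adjusted p = 0.0307), or by 0.21 with 16 added to the linear values and 0.53 with median centring. The call was lost without FXRα4 replicate 3 (−0.25), GFP replicate 1 (−0.34) or GFP replicate 3 (−0.26), at limma adjusted p from 0.0769 to 0.177.

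Nr0b2, the gene of SHP, had levels of 4.52, 4.86 and 4.54 with FXRα1, 4.94, 5.34 and 4.88 with FXRα2, 4.24, 4.20 and 4.14 with FXRα3 and 4.45, 4.20 and 4.16 with FXRα4, against 4.75, 4.60 and 4.61 with GFP. The FXRα2 arrays lay above GFP, the FXRα3 and FXRα4 arrays lay below it, and FXRα1 overlapped it. The probe set was above the dim limit in every group but in the lower part of the range, at the 39.6th percentile of all genes. Its means of 4.19 with FXRα3 and 4.27 with FXRα4 lay near that limit of 3.96, where little range can be seen. Nr0b2 rose with FXRα2 (0.40 ± 0.13, limma adjusted p = 0.0154) and fell with FXRα3 (−0.46 ± 0.13, limma adjusted p = 0.0141) and FXRα4 (−0.39 ± 0.13, limma adjusted p = 0.0198). With FXRα1 the change was −0.0169 ± 0.13, with a 95% interval from −0.28 to 0.24. With 16 added to the linear values the changes with FXRα2, FXRα3 and FXRα4 were 0.26, −0.26 and −0.22, all still past the threshold.

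Each Nr0b2 call against GFP depended on single arrays. That with FXRα2 was lost without FXRα2 replicate 2 (0.26), GFP replicate 2 (0.37) or GFP replicate 3 (0.38), at limma adjusted p from 0.0524 to 0.132, and with median centring (0.21, limma adjusted p = 0.199). That with FXRα3 was lost without FXRα3 replicate 3 (−0.43) or GFP replicate 1 (−0.41), at limma adjusted p of 0.0595 and 0.0699. That with FXRα4 was lost without FXRα4 replicate 2 (−0.35), FXRα4 replicate 3 (−0.33) or GFP replicate 1 (−0.34), at limma adjusted p from 0.0698 to 0.0861. The direction was kept in every one of these.

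The promoters of Cyp8b1 and Nr0b2 are shown because SHP is known to restrain Cyp8b1 through the nuclear receptors HNF4α and LRH-1 (NR5A2), and NR5A2 is known to drive Nr0b2 itself. RefSeq's promoter windows (build GRCm38.p6, 250 bases before to 50 after the start) held 5 of the 10 genes: Cyp8b1, Cyp27a1, Nr0b2, Fgfr4 and Klb. Capitals mark matches to the NR5A2 motif CAAGGNCA and to the HNF4 motif CAAAGTCCA, both searched on both strands, the latter chosen after the expression values were seen.
Cyp8b1, chr9:121916256-121916555, minus strand: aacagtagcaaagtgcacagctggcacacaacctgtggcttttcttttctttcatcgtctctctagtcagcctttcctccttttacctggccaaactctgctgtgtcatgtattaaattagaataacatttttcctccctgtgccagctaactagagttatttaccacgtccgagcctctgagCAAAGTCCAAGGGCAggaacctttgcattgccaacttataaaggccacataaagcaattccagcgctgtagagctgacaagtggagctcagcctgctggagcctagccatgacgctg
Nr0b2, chr4:133553126-133553425, plus strand: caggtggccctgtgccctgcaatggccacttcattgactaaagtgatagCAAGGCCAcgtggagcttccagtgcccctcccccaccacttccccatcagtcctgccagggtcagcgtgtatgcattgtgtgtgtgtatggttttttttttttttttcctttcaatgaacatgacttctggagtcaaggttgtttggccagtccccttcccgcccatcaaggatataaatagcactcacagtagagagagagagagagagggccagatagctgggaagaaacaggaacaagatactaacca

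In the Cyp8b1 window the HNF4 motif lay at −67 to −59 and the NR5A2 motif at −60 to −53 relative to the start, so that the motifs overlapped and read as 1 run of capitals. In the Nr0b2 window the NR5A2 motif lay at −201 to −194. Of all 32851 promoter windows of the same length, 6.71% held the NR5A2 motif and 0.475% the HNF4 motif. The nuclear receptor motif AGGTCA was in none of the 5 windows and in 16.3% of all. Neither were 2 copies of it as an inverted repeat with 1 base between (1.14% of all windows) or as an everted repeat with 2 bases between (1.47%), each searched with up to 2 mismatches. A match is a description of the letters and not a binding site, and a window without one says nothing of the rest of the locus. HNF4α's own gene, Hnf4a, stood at 10.2 ± 0.07 in FXRα1 cells, 10.6 ± 0.04 in FXRα2 cells, 9.76 ± 0.04 in FXRα3 cells and 9.95 ± 0.07 in FXRα4 cells, against 9.09 ± 0.08 in GFP cells (SD, n = 3 each), and rose in all 4 comparisons.

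The receptor genes of the intestinal signal fell with some isoforms and in no case rose. Fgfr4, the receptor tyrosine kinase gene, had levels of 7.04, 6.83 and 7.09 with FXRα1, 7.10, 6.99 and 6.84 with FXRα2, 7.01, 6.82 and 6.91 with FXRα3 and 6.50, 6.33 and 6.20 with FXRα4, against 6.99, 6.87 and 6.97 with GFP. The FXRα4 arrays stood below all 12 others, and the other 4 groups overlapped. Fgfr4 fell to 0.66 times the GFP level with FXRα4 (log2 −0.60 ± 0.10, limma adjusted p = 3.36e-05). The other changes lay between −0.03 and 0.0434, with 95% intervals inside −0.23 and 0.25.

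Klb, the coreceptor gene, had levels of 6.38, 6.30 and 6.57 with FXRα1, 6.67, 6.44 and 6.78 with FXRα2, 5.73, 5.66 and 5.88 with FXRα3 and 5.79, 5.94 and 6.09 with FXRα4, against 6.54, 6.64 and 6.74 with GFP. All arrays of the isoforms with the longer N-terminus lay below all others. Klb fell to 0.541 times the GFP level with FXRα3 (log2 −0.89 ± 0.11, limma adjusted p = 4.25e-06) and to 0.614 times with FXRα4 (−0.70 ± 0.11, limma adjusted p = 1.94e-05). With FXRα1 (−0.22 ± 0.11, limma adjusted p = 0.236) and FXRα2 (−0.0124 ± 0.11, limma adjusted p = 0.948) it did not pass, although the FXRα1 change did with median centring (−0.31) and with quantile normalization (−0.29). The ligand gene Fgf15 passed in none of the 9 comparisons, with a limma log2 change between −0.16 and 0.0619 against GFP. Its group means ran from 4.12 with FXRα1 to 4.34 with FXRα3, near the dim limit of 3.96, where little range can be seen.

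The isoforms were then compared with each other, first by the insert. Each isoform came from its own adenovirus, and the amount of human transgene was not checked here. Differences by the insert or the N-terminus therefore cannot be told apart from differences in that amount. FXRα2 against FXRα1 and FXRα4 against FXRα3 share no arrays, and each asks what absence of the insert changed, with the shorter and with the longer N-terminus. In the first, 4 of the 10 genes changed, where 31.3% of all genes passed; 3 rose and 1 fell, where 14.1% and 17.1% of all genes did. In the second, 4 changed, where 29.5% passed; 1 rose and 3 fell, where 15.8% and 13.8% did. The groups did not overlap for 4 of the 10 genes in the first, against 38.2% of all genes, and for 4 in the second, against 41.4%. Cyp39a1, Cyp7b1 and Cyp8b1 changed in both, where 18.4% of all genes did, and 2 of these 3 in the same direction, where 17.3% of all genes did. The sign of the estimate was the same in both for 6 of the 10 genes and for 67.6% of all genes.

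Cyp7b1 was lower without the insert in both settings, by a log2 of −0.40 ± 0.10 for FXRα2 against FXRα1 (limma adjusted p = 0.00435) and −0.42 ± 0.10 for FXRα4 against FXRα3 (limma adjusted p = 0.00289). The difference between these effects was −0.0233 ± 0.15, with a 95% interval from −0.33 to 0.28. Cyp39a1 was higher without the insert in both, by 0.26 ± 0.07 (limma adjusted p = 0.00799) with the shorter N-terminus and 0.74 ± 0.07 (limma adjusted p = 6.16e-08) with the longer, and these effects differed by 0.48 ± 0.10 (limma adjusted p = 0.00352). The smaller effect was lost without FXRα2 replicate 1 (0.18, limma adjusted p = 0.0841) and with median centring (0.16, limma adjusted p = 0.0973).

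Cyp8b1 moved in opposite directions. It was 1.67-fold higher with FXRα2 than with FXRα1 (log2 0.74 ± 0.11, limma adjusted p = 1.39e-05), and FXRα4 stood at 0.667 times the FXRα3 level (−0.58 ± 0.11, limma adjusted p = 0.000229). The effects differed by −1.32 ± 0.16 (limma adjusted p = 5.16e-06). Fgfr4 was lower with FXRα4 than with FXRα3 (−0.57 ± 0.10, limma adjusted p = 8.16e-05), against −0.012 ± 0.10 for FXRα2 over FXRα1 (limma adjusted p = 0.949), and these effects differed by −0.56 ± 0.14 (limma adjusted p = 0.00885). In the test of that difference 3 of the 10 genes passed, Cyp8b1, Fgfr4 and Cyp39a1, where 12.9% of all genes did. The estimate was positive for 1 and negative for 2 of them, where 7.24% and 5.63% of all genes passed in those directions.

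Nr0b2 was higher with FXRα2 than with FXRα1 (0.42 ± 0.13, limma adjusted p = 0.013), and FXRα4 against FXRα3, both near the dim limit, gave 0.0758 ± 0.13 (limma adjusted p = 0.729). The difference of these effects, −0.34 ± 0.18, did not pass (95% interval −0.71 to 0.0272, limma adjusted p = 0.251). The first of these calls was lost without FXRα1 replicate 1 (0.36), FXRα1 replicate 3 (0.37) or FXRα2 replicate 2 (0.28), at limma adjusted p from 0.0569 to 0.119, and with median centring (0.32). For Klb absence of the insert gave 0.21 ± 0.11 with the shorter N-terminus and 0.18 ± 0.11 with the longer, and neither passed (limma adjusted p of 0.164 and 0.249). Cyp27a1 with FXRα4 against FXRα3 was −0.13 ± 0.06 (limma adjusted p = 0.0983), which passed with the replicate number as a block (limma adjusted p = 0.0247), with median centring (−0.30) and without FXRα4 replicate 2 (−0.18).

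**Figure D3:**
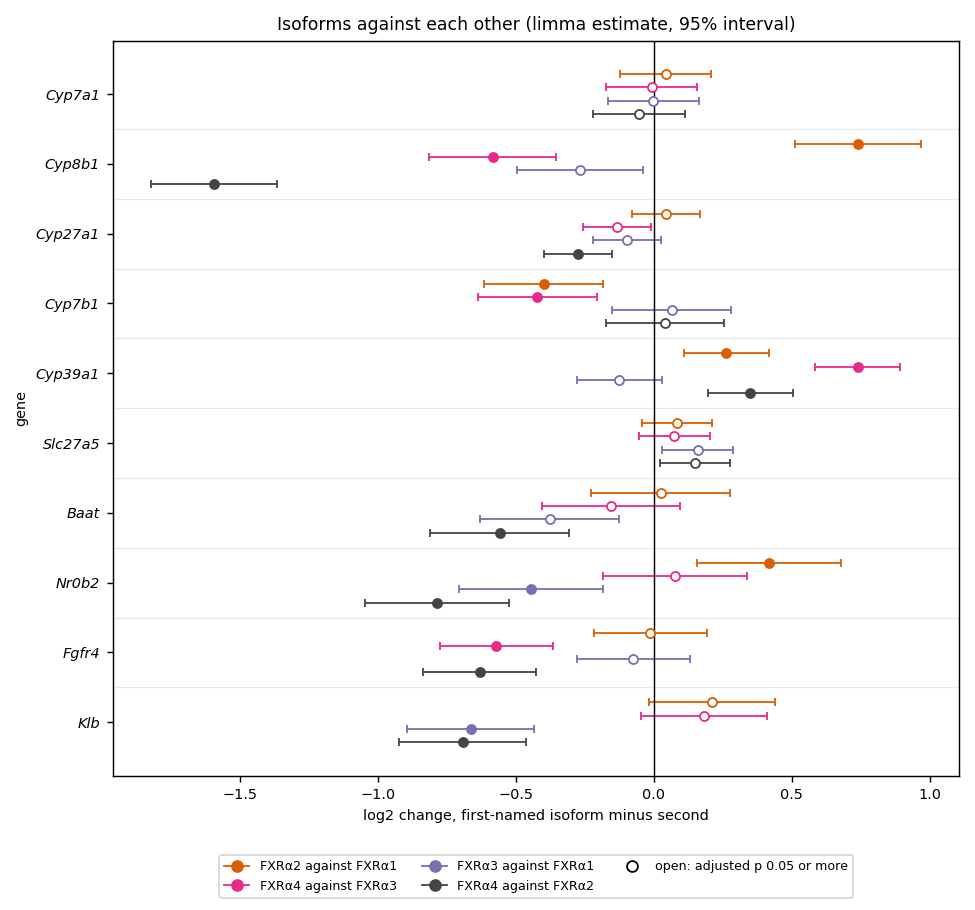
Log2 change of each gene between isoforms, first-named minus second, with the 95% interval from limma over 3 arrays a group. Filled points passed at an adjusted p under 0.05. The insert contrasts of Cyp8b1 lie on opposite sides of 0 (0.74 and −0.58), and the N-terminus contrasts of Klb lie together (−0.66 and −0.69).

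The N-terminus was compared with the insert present (FXRα3 against FXRα1) and absent (FXRα4 against FXRα2). With the insert 2 of the 10 genes changed, where 6.86% of all genes passed; 0 rose and 2 fell, where 2.21% and 4.65% did. Without it 7 changed, where 23.7% passed; 1 rose and 6 fell, where 11.7% and 12.0% did. The groups did not overlap for 5 of the 10 genes with the insert, against 20.4% of all genes, and for 8 without it, against 33.6%. Klb and Nr0b2 fell in both. The share of all genes that fell in both was not counted, so this is a description only. Klb was lower by −0.66 ± 0.11 for FXRα3 against FXRα1 (limma adjusted p = 0.00043) and −0.69 ± 0.11 for FXRα4 against FXRα2 (limma adjusted p = 5.6e-05), and the effects differed by −0.0286 ± 0.16, with a 95% interval from −0.35 to 0.29. With its FXRα3 and FXRα4 means near the dim limit, Nr0b2 was lower by −0.44 ± 0.13 (limma adjusted p = 0.034) and −0.79 ± 0.13 (limma adjusted p = 5.92e-05). The first of these was lost without FXRα1 replicate 2 (−0.33) or any 1 of FXRα3 replicate 1 (−0.47), replicate 2 (−0.45) and replicate 3 (−0.42), at limma adjusted p from 0.076 to 0.117, and with median centring (−0.38). The count over all genes in that comparison also moved, to 831 without FXRα3 replicate 1 and 780 without FXRα3 replicate 2, against 1291 with all arrays.

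Without the insert, Cyp8b1 stood at 0.332 times the FXRα2 level with FXRα4 (log2 −1.59 ± 0.11, limma adjusted p = 5.39e-10). Fgfr4 (−0.63 ± 0.10, limma adjusted p = 4.14e-05), Baat (−0.56 ± 0.12, limma adjusted p = 0.00142) and Cyp27a1 (−0.27 ± 0.06, limma adjusted p = 0.00124) fell too, and Cyp39a1 rose (0.35 ± 0.07, limma adjusted p = 0.00108). With 16 added to the linear values the changes were −0.34 for Baat and −0.48 for Nr0b2, and between FXRα2 and FXRα1 and between FXRα3 and FXRα1 those of Nr0b2 were 0.27 and −0.26. With the insert, Cyp8b1 (−0.27 ± 0.11, limma adjusted p = 0.172) and Baat (−0.38 ± 0.12, limma adjusted p = 0.0654) did not pass, and Baat passed without FXRα3 replicate 1 (−0.48, limma adjusted p = 0.0363), with quantile normalization (limma adjusted p = 0.0388) and with the replicate number as a block (limma adjusted p = 0.034). Slc27a5 gave 0.16 ± 0.06 with the insert and 0.15 ± 0.06 without it, and neither passed (limma adjusted p of 0.14 and 0.0857). The first passed with median centring and with quantile normalization (0.22 in both), and the second with quantile normalization (0.17, limma adjusted p = 0.0343).

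Other enzymes of the pathway were followed in a list of 18 genes, of which 16 were measured. With FXRα1, 2 rose and 0 fell (12.4% of all genes passed), with FXRα2, 4 rose and 1 fell (34.3%), with FXRα3, 3 rose and 1 fell (14.1%), and with FXRα4, 3 rose and 5 fell (33.8%). The list's median log2 change was 0.0204, 0.0339, −0.00545 and −0.1 in that order of isoforms, against 0.0035, −0.0478, −0.00263 and −0.0267 for all genes. Of the list's 19 calls against GFP, 7 were lost with median centring and 7 without the variance trend. Single GFP arrays mattered as well, with 2, 4 and 6 of the 19 lost without GFP replicate 1, 2 and 3. Cyp2c70, which makes muricholic acids in mice, rose with all 4 isoforms (0.20 ± 0.05, 0.39 ± 0.05, 0.25 ± 0.05 and 0.41 ± 0.05 from FXRα1 to FXRα4, limma adjusted p from 8.45e-07 to 0.0078), and the FXRα1 call was lost with median centring (0.12, limma adjusted p = 0.295) and without the variance trend (limma adjusted p = 0.0508). Hsd17b4, a peroxisomal enzyme of side-chain shortening, rose with FXRα2 (0.25 ± 0.05, or 0.0643 and no longer called with median centring) and fell with FXRα3 (−0.46 ± 0.05) and FXRα4 (−0.41 ± 0.05). Amacr, the racemase that acts before shortening, fell with FXRα4 (−0.68 ± 0.09). Its rise with FXRα1 (0.29 ± 0.09) was lost with median centring (0.20), without the variance trend, and without FXRα1 replicate 3 (0.20) or GFP replicate 1 (0.21). Scp2, a peroxisomal thiolase gene, rose with FXRα2 (0.54 ± 0.10), and Abcd3, which carries bile acid precursors into peroxisomes, fell with FXRα4 (−0.27 ± 0.06). The rise of Abcd3 with FXRα2 (0.18 ± 0.06) was −0.00538 with median centring, and its call was lost when GFP replicate 3 (0.17), FXRα2 replicate 1 (0.17) or FXRα2 replicate 3 (0.16) was left out.

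A list of 23 genes that control bile acid synthesis had 19 measured. With FXRα1, 4 rose and 4 fell (12.4% of all genes passed), with FXRα2, 4 rose and 4 fell (34.3%), with FXRα3, 2 rose and 5 fell (14.1%), and with FXRα4, 6 rose and 4 fell (33.8%). The medians were −0.0685, 0.0397, −0.0162 and −0.00353 in that order, against 0.0035, −0.0478, −0.00263 and −0.0267 for all genes. Of the list's 33 calls against GFP, 4 were lost with median centring, 2 without the variance trend and 1 with quantile normalization. Single GFP arrays mattered as well, with 3, 7 and 5 of the 33 lost without GFP replicate 1, 2 and 3. Hnf4a rose by 1.09 ± 0.05, 1.54 ± 0.05, 0.67 ± 0.05 and 0.86 ± 0.05, and Prox1, a corepressor of Cyp7a1, by 0.97 ± 0.10, 0.99 ± 0.10, 0.88 ± 0.10 and 1.03 ± 0.10. Nfil3, a repressor of the clock output pathway, fell by 0.50 ± 0.06, 0.73 ± 0.06, 0.70 ± 0.06 and 0.79 ± 0.06 on the log2 scale. Nr1i2, the gene of the xenobiotic and bile acid sensor PXR, rose with FXRα1 (0.39 ± 0.11) and FXRα2 (1.58 ± 0.11) and fell with FXRα3 (−0.54 ± 0.11) and FXRα4 (−0.37 ± 0.11). Its FXRα1 call was lost with only the groups compared (limma adjusted p = 0.0528) and without FXRα1 replicate 1 (0.36), FXRα1 replicate 3 (0.28), GFP replicate 2 (0.35) or GFP replicate 3 (0.37), and its FXRα4 call without GFP replicate 1 (−0.30). Mafg, which encodes a repressor of Cyp8b1 known in mice, fell with FXRα2 (−0.32 ± 0.07) and FXRα4 (−0.68 ± 0.07). Nr5a2 passed in none of the 4, with changes from −0.14 to 0.0397.

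**Figure D4:**
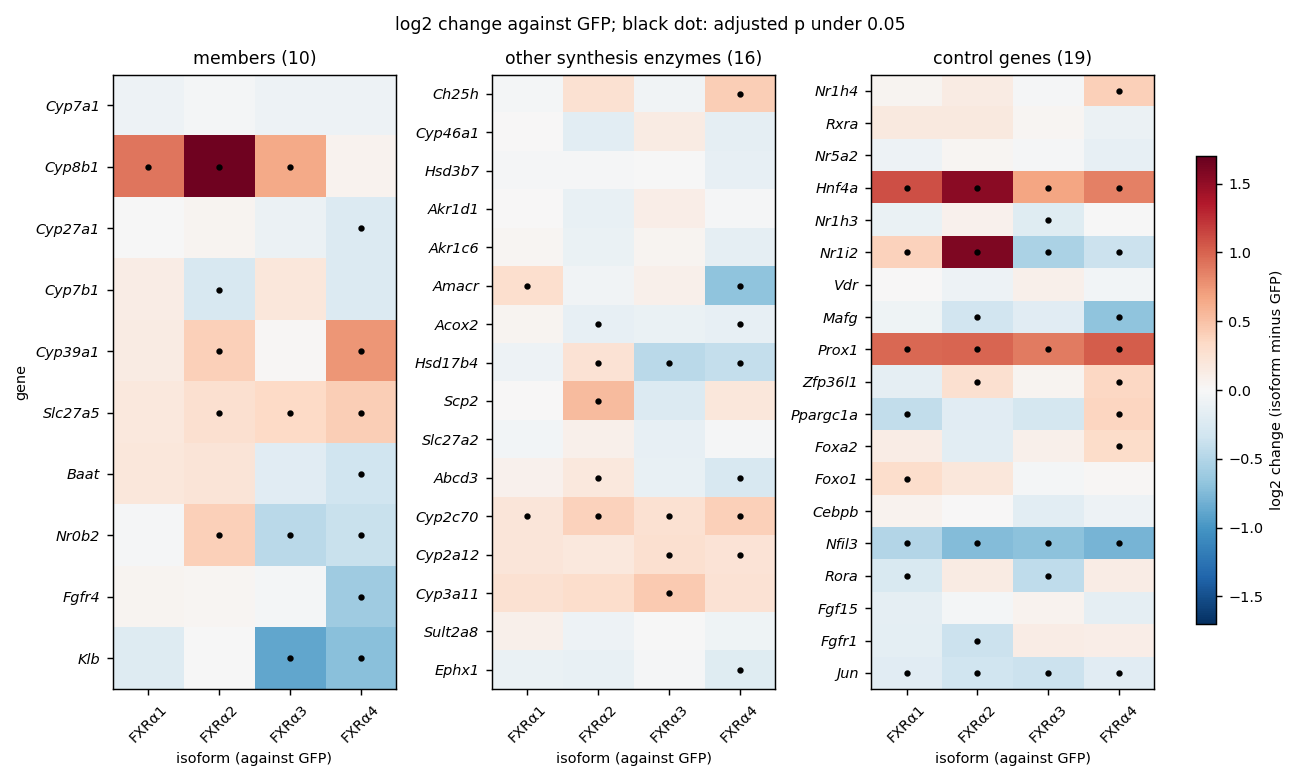
Log2 change against GFP (colour) for the 10 genes, the 16 other synthesis enzymes and the 19 control genes, with isoforms as columns. A black dot marks an adjusted p under 0.05. Hnf4a, Prox1, Nfil3, Jun, Nr1i2 and Cyp2c70 carry a dot in all 4 columns. The FXRα1 call of Jun was lost without the variance trend and with only the groups compared. It was also lost without FXRα1 replicate 1 or 2 or GFP replicate 2 or 3. The FXRα4 call of Jun was lost without GFP replicate 2 or 3. Among the 10 genes, Cyp8b1, Slc27a5 and Nr0b2 carry it in 3.

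Genes most like a member over the 15 arrays were found by Pearson's r for the 5 members that changed with at least 2 isoforms. The arrays fall into 5 groups, so r mainly reflects the group means, and it is given as a description. Cyp8b1 was most like Xylb (r = 0.964), Tmem150a (0.957) and Dnajc22 (0.953). Cyp39a1 was most like Rsbn1l (0.959), S1pr1 (0.959) and Gjc3 (0.958). Slc27a5 was most like Pigp (0.954), Cxcl2 (0.927) and Nubp2 (0.920). Nr0b2 was most like Dhdh (0.927), Glyctk (0.922) and Ndrg2 (0.903). Klb was most like Pla2g6 (0.944), Lrrc39 (0.942) and Cerk (0.940).

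Directions are relative to the deposited scale. Each array was centred on the median of its probe sets with a single annotated symbol. This moves every gene's change in a comparison by the same amount. That amount was −0.084 for FXRα1, −0.19 for FXRα2, −0.0212 for FXRα3 and −0.19 for FXRα4 against GFP. It was −0.10 for FXRα2 against FXRα1 and −0.16 for FXRα4 against FXRα3. The median change of all genes against GFP became −0.080, −0.23, −0.0239 and −0.21 from FXRα1 to FXRα4. On the deposited scale it was 0.0035, −0.0478, −0.00263 and −0.0267. After that centring 1094 genes rose and 1631 fell with FXRα1, against 1584 and 752 on the deposited scale. With FXRα2 2083 rose and 9725 fell, against 3298 and 3150, and with FXRα4 2066 and 8672, against 3392 and 2960. For FXRα2 against FXRα1 the split was 1919 and 5799, against 2657 and 3225, for FXRα4 against FXRα3 1741 and 7158, against 2973 and 2588, and for FXRα3 against FXRα1 858 and 635, against 416 and 875. For the difference of insert effects it was 1152 and 1538, against 1363 and 1059. Quantile normalization moved the median by −0.0195 to 0.019 over the 9 comparisons.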

How the data were processed

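Total RNA was measured on 15 Affymetrix arrays. The authors deposited log2 values per probe set, and the log base was inferred from their range of 1.93 to 13.8. Affymetrix Expression Console 1.1 and PLIER are named in the submitters' processing notes. How background was corrected and arrays were normalized is not given in the sources used here, and the number of arrays limits the precision. Array medians over all 35556 probe sets lay between 4.92 and 5.01. Median centring used another median, that of each array's 21218 probe sets with a single annotated symbol.

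The platform annotation gave a single symbol for 21218 of 35556 probe sets, several for 1881 and none for 12457. Of the single-symbol probe sets, 21185 matched RefSeq by Entrez identifier and 0 symbols differed. The probe set with the highest mean was kept per gene (1386 genes had several), which left 18820 genes with no filter.

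A linear model of 5 group means over all 15 arrays was fitted across all genes with limma 3.58.1 in R 4.3.3, with variances that follow the mean level, and was tested on simulated data. Tests were two-sided, with Benjamini-Hochberg adjustment over all genes within each of 9 comparisons. "Rose", "fell" and "changed" mean an adjusted p under 0.05, and values after ± are SE in tests and SD in levels.

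The members and lists were chosen with earlier results of these data known. Named genes were the members, Abcb11, Nr1h4, up to 4 genes of smallest adjusted p per list and comparison, and the 3 genes most like each member that changed with 2 or more isoforms, passing over predicted genes. Fgf15, Nr5a2 and some list genes were named beyond that rule, after their values were seen. Alternatives were no variance trend, only the groups compared, the dimmest 25% of genes left out, median centring, quantile normalization, 16 added to linear values, every probe set tested, the replicate number as a block, and each array left out in turn.

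Deviations from group means correlated between arrays of one replicate number with r from −0.21 to 0.43 (18 of 30 pairs over 0.1). All 3 such pairs were over 0.1 for FXRα4 with FXRα3 (0.15 to 0.36) and FXRα4 with FXRα2 (0.13 to 0.43), which counts here as paired, a pairing that comes from these correlations and not from the labels. In the other comparisons at least 1 pair was not, and the numbers were not taken to pair the samples. Python 3.11.15, pandas 2.3.3 and matplotlib 3.10.9 served for tables and plots.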

Additional observations from a re-analysis of the deposited data

Results flagged for a closer look

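The effect of the missing insert differed between the N-termini for 3 of the 10 genes, where it did for 12.9% of all genes, by limma's test of the difference itself, (FXRα4 − FXRα3) − (FXRα2 − FXRα1). The difference was −1.32 for Cyp8b1 (limma adjusted p = 5.16e-06), −0.56 for Fgfr4 (limma adjusted p = 0.00885) and 0.48 for Cyp39a1 (limma adjusted p = 0.00352). These 3 passed in all 15 fits that left out an array. Groups of 3 arrays are too small for a test of single outlying arrays. The amount of human transgene was not checked, so differences in it between the isoforms cannot be told apart from effects of the insert.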

How the results depend on the processing

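Of 90 changes tested (10 genes in 9 comparisons), 37 passed, 28 of these under all 23 alternatives, and no call changed direction. The share of all genes that passed ran from 6.86% for FXRα3 against FXRα1 to 34.3% for FXRα2 against GFP. Calls that held under every alternative were counted for the members only. The sign of a change that passed in neither fit differed in 20 cases under median centring or quantile normalization and in 45 when an array was left out, none of them over 0.0839 in size with all arrays. Median centring lost 5 calls and gained 5, quantile normalization gained 5, and leaving out the dimmest genes gained 2. Median centring moved the count of all genes called to 11808 for FXRα2 and 10738 for FXRα4 against GFP. For FXRα4 against FXRα3 it became 8899. The count of members called became 2 for FXRα1 against GFP, where 2725 of 18820 genes passed. It became 3 for FXRα2 against GFP, where 11808 passed, and 2 for FXRα2 against FXRα1, where 7718 did. With FXRα4 against GFP median centring gained Cyp7a1 and Cyp7b1, where 10738 of all genes passed. That centring moved every gene's change in a comparison by the same amount. Why the medians of the arrays differed was not tested. With FXRα1 against GFP 2 members also passed without the dimmest genes (2513 of 14115 genes) and with quantile normalization (2780 of 18820 genes). With FXRα3 against FXRα1 4 members passed with quantile normalization, where 1585 of 18820 genes did. The replicate number as a block gave 2 members and 3072 genes for FXRα1 against GFP, and 2117 genes for FXRα3 against FXRα1. It gained 3 member calls and lost 0. In the paired comparisons, FXRα4 against FXRα3 and against FXRα2, it changed the call of Cyp27a1 in the first and no other member's call. In deviations from the group means 11 of 15 arrays correlated best with their own number. Leaving out each array gave 780 to 1926 genes and 1 to 2 members for FXRα3 against FXRα1. For FXRα1 against GFP it gave 1749 to 2789 genes and 1 to 2 members. For FXRα2 against GFP it gave 5592 to 6653 genes and 3 to 5 members. Cyp7a1 was too dim for its transcript to be compared.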
